A study of Sus scrofa with 189 samples.

Results

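The genes described here code for the exchangeable adaptors of cullin-RING ubiquitin ligases. They were taken by name, as every listed gene whose deposited symbol starts with KLHL, KBTBD, FBXO, FBXL, FBXW or ASB followed by a digit, leaving out FBXO32. The rule gave 96 of 12651 genes, made up of 29 KLHL, 8 KBTBD, 24 FBXO, 13 FBXL, 6 FBXW and 16 ASB genes. They hold 142 of the 18114 listed transcripts. A further 7 genes of these families carry their name only in a reference table and were not counted as members.

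Poly(A) RNA from the long back muscle (longissimus dorsi) was sequenced in 189 Duroc x Luchuan crossed pigs that got the same diets on 1 farm and were slaughtered at 210 ± 6 days of age. No animal was treated, and all were of the first generation from 8 Duroc boars, whereas the number of Luchuan sows is given as 112 in one label and as 158 in another. Intramuscular fat content (IMF, unit not stated in the labels) is recorded for 164 animals: 143 whose titles carry no mark (IMF 1.19 to 5.61), and 21 whose titles include the unexplained word re-analyzed (called marked below), 11 of them with low IMF (0.77 to 2.33) and 10 with high IMF (4.83 to 6.84). For the other 25 animals, all unmarked, no IMF is given.

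Cullin-RING ligases attach ubiquitin to proteins and so mark most of them for the proteasome. A cullin holds a RING protein and ubiquitin-loaded enzyme at one end and an exchangeable substrate receptor at the other, and the receptor decides which protein is modified. KLHL and KBTBD proteins bind CUL3 through their BTB domain, F-box proteins (FBXO, FBXL with leucine-rich repeats, FBXW with WD40 repeats) bind SKP1 on CUL1, and ASB proteins bind Elongin B and C on CUL5 through a SOCS box. In striated muscle several of these receptors are known for the upkeep of the sarcomere, and mutations of KLHL40, KLHL41 and KBTBD13 cause nemaline myopathy in people.

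Values are FPKM, fragments scaled to transcript length and library size, summed over the listed transcripts of a gene. Read counts were not analysed, so the depth of the libraries is unknown and every error is a spread between animals. Summed over all genes, the libraries held 364109 to 465105 FPKM. The muscle label was met by its defining markers: the 6 measured fibre markers, skeletal actin ACTA1 and desmin among them, summed to 16379 to 61320 FPKM per library. Library 39 (libraries are named by the number in their labels) stood farthest from the others, with a median correlation of 0.889 over genes against up to 0.957. It held the highest value of 18 members. Libraries 79, 82, 122 and 184 held the highest or lowest value of 9, 11, 9 and 8 members. The counts of members called for the mark and the title codes, and of correlated pairs, are therefore also given without these 5 libraries.

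The adaptors ranged from KLHL41 at 511 FPKM down to FBXL2 at 0.0783 FPKM. The median of their means was 3.75 FPKM, against 3.03 FPKM over all genes. ASB genes had the highest median per gene, 12.3 FPKM, with 9 of 16 members at 10 FPKM or more. KLHL and KBTBD genes had a median of 2.44 FPKM (9 of 37 at 10 FPKM or more) and F-box genes one of 2.67 FPKM (9 of 43). By family sum the order differed: KLHL and KBTBD genes held 895.8 ± 286.3 FPKM (SD, n = 189), ASB genes 524.3 ± 111.5 and F-box genes 306.2 ± 49.98. Summed over the 96 members the level was 1726 ± 288 FPKM (SD, n = 189), with 986 in the lowest animal and 2741 in the highest. The 3 most abundant members held on average 52.7% of that sum, between 40.1% and 71.4% in single animals, so a few muscle adaptors made up most of the adaptor RNA.

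**Figure D1:**
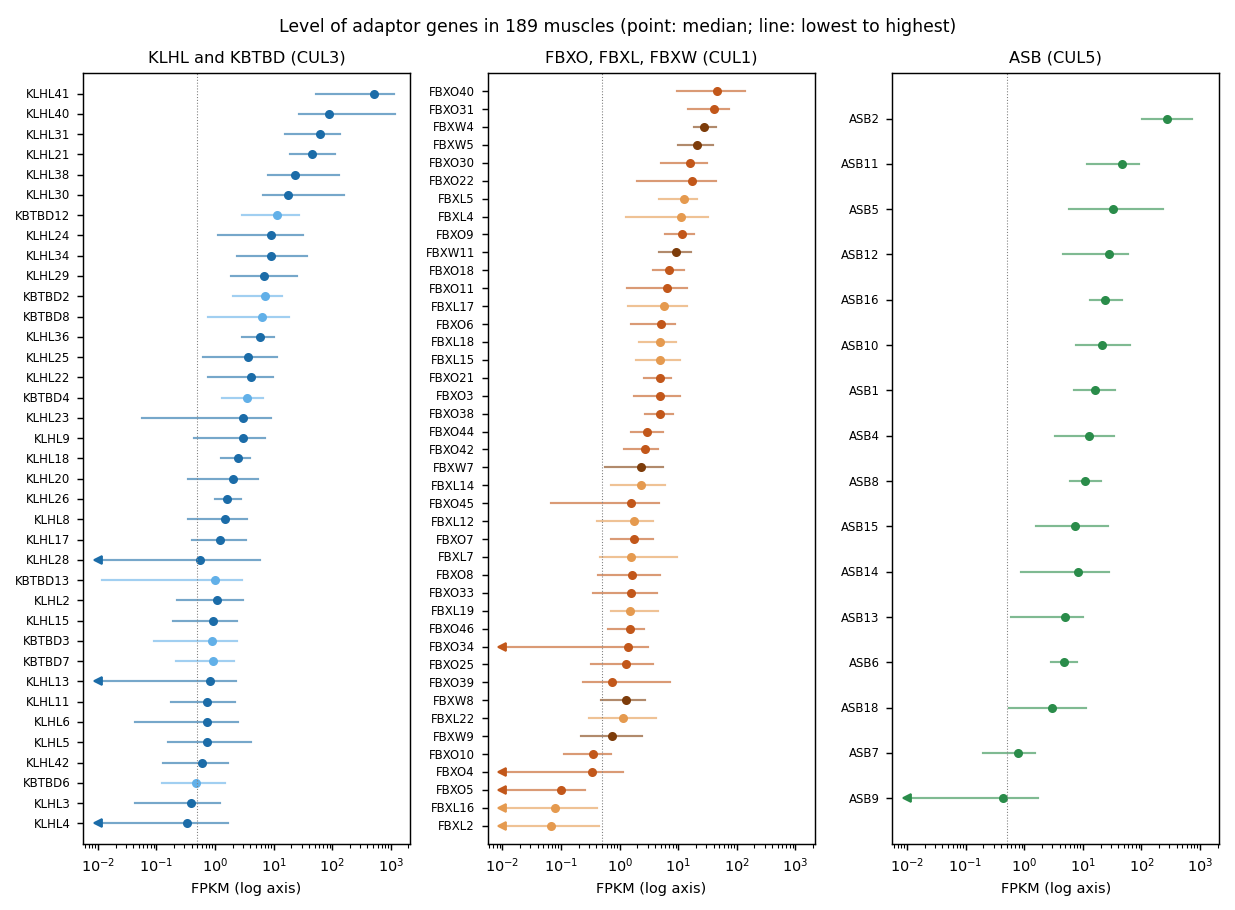
Level of the adaptor genes in 189 muscles (95 of 96 drawn), in FPKM on a log axis, split by the cullin they bind. Points are medians, lines run from the lowest to the highest animal, an arrowhead marks a lowest value under 0.01 FPKM, and the dotted line is the 0.5 FPKM filter; KLHL41, ASB2 and KLHL40 lie at the top, with medians of 525, 274 and 89.4 FPKM.

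KLHL41 (ENSSSCG00000033049, chr15:75875689-75895248 of Sscrofa11.1, + strand), a CUL3 adaptor needed for intact sarcomeres, was the most abundant member and ranked 93rd among all genes. Its level was 511 ± 227 FPKM (SD, n = 189), with a lowest value of 52.1, a median of 525 and a highest of 1156. A long lower tail was present, since 36 animals lay at or below 0.5 times the median and 2 at or above 2 times.

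KLHL40 (ENSSSCG00000011286, chr13:26202677-26208785, + strand) is its close relative, which stabilizes the thin-filament proteins nebulin and LMOD3. It lay at 27.2 FPKM in the lowest animal, 89.4 at the median and 1193 in the highest, with a mean of 121 ± 127 (SD, n = 189). Its tail ran the other way from that of KLHL41. In 22 animals it reached at least 2 times the median, led by library 92 (1193 FPKM), library 184 (876 FPKM) and library 187 (700.2 FPKM), while 6 animals lay at or below 0.5 times the median. The last 3170 bases of the gene overlap HHATL on the opposite strand. Without strand in the counting, reads of that stretch could belong to either gene. The same limit holds for other members with a neighbour on the opposite strand. Among them are FBXO11 (MSH6, 6605 bases), ASB14 (APPL1, 5784 bases), FBXO40 (HCLS1, 2378 bases) and ASB8 (PFKM, 891 bases).

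Among the other KLHL genes, KLHL31, a filamin-C binding protein of striated muscle, lay between 15.5 and 138 FPKM (median 62.8). KLHL21, an adaptor first known from cell division, lay between 19.2 and 110 FPKM (median 45.7). KLHL38 lay between 8.03 and 130 FPKM with a median of 22.8. The muscle genes KLHL30 (mean 21.6 FPKM), KBTBD12 (12.4 FPKM) and KLHL34 (10.2 FPKM) followed at lower levels. KBTBD13 was low at 1.10 ± 0.653 FPKM (SD, n = 189), although it is a muscle disease gene like KLHL40 and KLHL41.

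ASB2 (ENSSSCG00000002467, chr7:115208701-115258835, - strand), which directs filamins and desmin to CUL5 ligases, was the second most abundant member. Its level was 286 ± 104 FPKM (SD, n = 189), with 103 in the lowest animal, 274 at the median and 741 in the highest. ASB11 followed with a mean of 46.6 FPKM, then ASB5 (41.6), ASB12 (27.7), ASB16 (25.4) and ASB10 (22.6). ASB8 (11.2), ASB15 (8.91), ASB14 (8.84) and ASB18 (3.58) were lower, and the creatine kinase B adaptor ASB9 had a mean of 0.461 FPKM. The ASB family thus spanned levels from near the filter to among the highest of the muscle.

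FBXO40 (ENSSSCG00000011885, chr13:138881514-138905399, - strand), a muscle F-box protein that targets the insulin receptor substrate IRS1, was the most abundant F-box gene. It lay at 9.58 FPKM in the lowest animal, 45.5 at the median and 135 in the highest. FBXO31, a receptor for cyclin D1, had a mean of 39.7 ± 10.8 FPKM and FBXW4 one of 27.4 ± 4.17 FPKM (SD, n = 189). FBXO30, which acts in muscle wasting, reached 16.8 FPKM. FBXL5, the iron-sensing receptor, had 12.6 FPKM. The cardiac sarcomere adaptor FBXL22 lay at 1.29 ± 0.645 FPKM. FBXO32, the atrophy F-box gene that the rule leaves out, had a mean of 54.8 FPKM, close to that of FBXO40.

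Of the 96 members, 88 had a mean of at least 0.5 FPKM and were tested. The 8 below it were ASB9, KLHL3, KLHL4, FBXO10, FBXO4, FBXO5, FBXL16 and FBXL2. KLHL3, the adaptor for WNK kinases, had a mean of 0.429 FPKM, and FBXO5, an inhibitor of the cell cycle ligase APC/C, one of 0.0963 FPKM.

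The spread between animals, as SD of log2(FPKM + 1), had a median of 0.38 over the 88 tested members and of 0.37 over all 10717 tested genes. By family the median was 0.51 for ASB, 0.44 for KLHL and KBTBD, and 0.34 for F-box genes. The most variable members were ASB5 (0.93), ASB14 (0.84), KLHL41 (0.84), KLHL40 (0.83), KLHL28 (0.79), FBXO22 (0.76), ASB15 (0.75), KLHL24 (0.74), FBXL4 (0.73) and FBXO40 (0.73). ASB5, reported in satellite cells, ran from 5.89 to 232 FPKM (median 32.5), with 35 animals at or above 2 times the median. ASB15 ran from 1.56 to 26.4 FPKM (median 7.28), with 34 such animals. KLHL28 was listed at 0 in 13 animals and reached 5.85 FPKM in the highest. Among the low ones, FBXW4 had an SD of 0.21 and stayed between 18.6 and 44.0 FPKM, and 3.13% of the tested genes had a lower SD, with KBTBD7, ASB7 and KLHL26 among them.

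**Figure D2:**
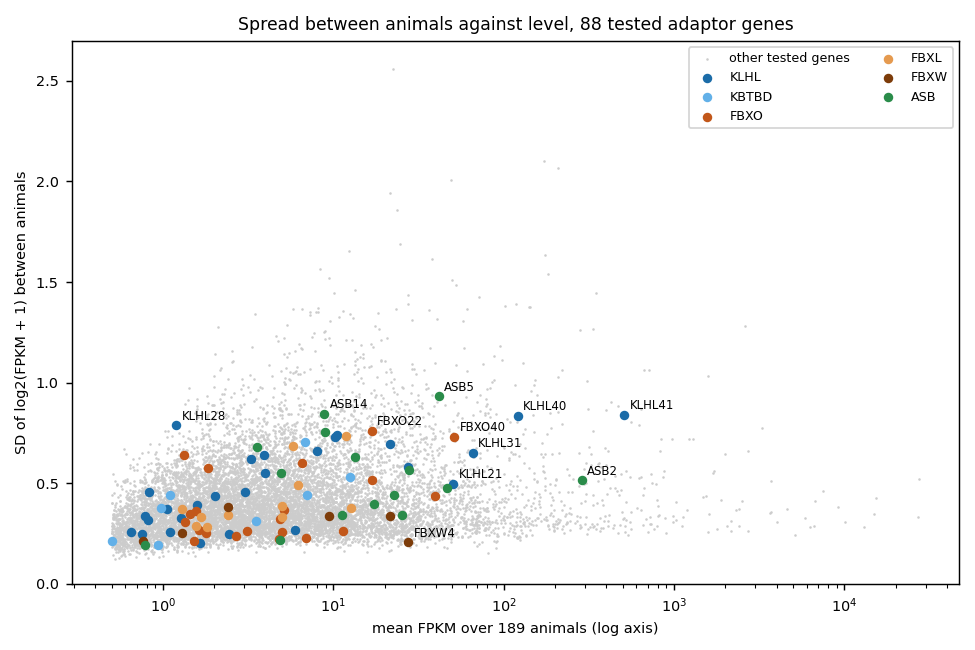
SD of log2(FPKM + 1) between 189 animals against mean FPKM (log axis), for the 88 tested adaptor genes in colour by family and all other tested genes in grey. ASB5, KLHL41 and KLHL40 lie high in the cloud (0.93, 0.84 and 0.83), and FBXW4 at its lower edge (0.21).

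The study recorded IMF, and the first question was whether adaptor levels followed it. No adaptor gene did at the threshold. Fitted with limma on log2(FPKM + 1) over the 164 animals, with a term for the mark, 0 of 88 members had a Benjamini-Hochberg adjusted p under 0.05, where 9 of all 10717 genes (0.084%) did. At an unadjusted p under 0.05 there were 4 members, and 527 of all genes. Slopes were positive in 73 of 88 members (median 0.02 per IMF unit) and in 7997 of 10717 genes (median 0.01), so the sign of the adaptors was that of most genes. When each library was centred on its median gene, the median slope of all genes was -0.00082.

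The 3 members with the smallest p were F-box genes. FBXO44, of the F-box group whose best known members bind glycoproteins, had a slope of 0.05 per IMF unit (SE 0.02, limma adjusted p = 0.746). FBXO6, a glycoprotein-binding member of that group, had one of 0.06 (SE 0.02, limma adjusted p = 0.785), and FBXO9 one of 0.04 (SE 0.02, limma adjusted p = 0.855). FBXO6 and FBXO44 are neighbours on chromosome 6 (chr6:71755359-71774262 and chr6:71742889-71754814, both on the + strand), 544 bases apart. The end of FBXO6 overlaps MAD2L2 on the opposite strand over 593 bases.

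Between the 10 high and 11 low IMF libraries that carry the mark, 0 of 88 members passed the same threshold (limma; 9 of all genes, 0.084%), and 1 had an unadjusted p under 0.05. That member was FBXO6, which lay between 3.57 and 8.55 FPKM (median 5.03) at high IMF and between 1.55 and 5.43 FPKM (median 3.23) at low IMF. All 10 high IMF libraries lay above the median of the low ones, but the ranges overlapped. The difference was 0.50 on the log2(FPKM + 1) scale (SE 0.15), with an adjusted p of 0.637, and leaving out single libraries gave adjusted p-values from 0.232 to 1.00. FBXO44 followed with 0.21 (SE 0.11) and KLHL23 with -0.36 (SE 0.21), both at an adjusted p of 0.986. In the same contrast 3 of 5 adipocyte markers were called higher at high IMF, and the 5 had a median difference of 1.08.

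Slopes were also compared between marked and unmarked libraries. By limma's interaction test 0 of 88 members differed (0% of all genes), with 2 members and 176 of all genes at an unadjusted p under 0.05. The members with the smallest p were KLHL23, whose slope per IMF unit was 0.19 lower in the marked libraries, FBXO31, whose slope was 0.12 lower, and KLHL40, whose slope was 0.20 higher, each with an adjusted p of 1.00. For FBXO6 the slope was 0.10 (SE 0.03) in the marked and 0.02 (SE 0.04) in the unmarked libraries, and the difference had an unadjusted p of 0.103.

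The mark itself went with larger differences. IMF was a linear term in this limma fit, and no marked library lay between 2.33 and 4.83, so animals were not matched for IMF. With that term, 30 of 88 members differed between marked and unmarked libraries (34.1%, against 41.1% of all genes). Of these 11 were higher in marked libraries (12.5%, all genes 18.3%) and 19 lower (21.6%, all genes 22.7%). After quantile normalization 18 members were higher and 16 lower (all genes 42.7% called, 21.5% higher), and with each library centred on its median gene 17 were higher and 16 lower (all genes 43.8% called, 23.8% higher). When a term for the leading 4 digits of each title was added, 7 were higher and 19 lower (all genes 39.3% called). Without libraries 39, 79, 82, 122 and 184 there were 9 higher and 18 lower (all genes 41.6% called). Titles also contain a 9-digit code, and only 12 codes hold both marked and unmarked animals with IMF (13 marked, 24 unmarked). With that code as a term, 4 of the 30 members still passed in limma: FBXW5 was higher and FBXL7, FBXO42 and FBXO7 were lower (all genes 10.4% called). The other 26 calls did not pass in that fit, those of KLHL41, ASB2, ASB5 and ASB18 among them, although each of the 30 kept its sign. The values below are from the fit without the code. KLHL and KBTBD genes gave 3 higher and 7 lower of 35, F-box genes 6 and 7 of 38, and ASB genes 2 and 5 of 15. Of 21 adaptors listed as rich in muscle, 1 of which (KLHL33) is not a member, 5 were higher and 5 lower.

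Among the abundant muscle adaptors the differences went both ways. KLHL41 lay between 485 and 940.1 FPKM (median 717) in the 21 marked libraries, and between 52.1 and 1156 (median 503) in the 143 unmarked ones with IMF. The marked libraries sat in the upper range of the others and lacked their low tail, with 20 of 21 above the unmarked median. The difference was 0.68 on the log2(FPKM + 1) scale (SE 0.19, limma adjusted p = 0.00214). KLHL31 was also higher, with a median of 78.5 against 61.2 FPKM and a difference of 0.44 (SE 0.15, limma adjusted p = 0.0113, 18 of 21 above the unmarked median).

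ASB2 was lower in the marked libraries, where it lay between 134 and 387 FPKM (median 199), against 103 to 741 (median 282) in the unmarked ones. The ranges overlapped, with 17 of 21 marked libraries below the unmarked median. The difference was -0.37 (SE 0.12, limma adjusted p = 0.00852). ASB5 fell further, from a median of 39.2 to 20.4 FPKM (difference -0.76, SE 0.21, limma adjusted p = 0.00238, 14 of 21 below the unmarked median). KLHL21 (-0.37), KLHL38 (-0.39), ASB16 (-0.27) and ASB8 (-0.19) were lower too, while ASB18 (0.73), ASB14 (0.51) and FBXL22 (0.24) were higher, all past the threshold. KLHL40 and FBXO40 did not pass it, at -0.33 (SE 0.20, limma adjusted p = 0.169) for KLHL40.

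ASB18 showed the largest rise of any member. It lay between 1.94 and 11.0 FPKM (median 5.52) in the marked libraries and between 0.547 and 11.3 (median 2.84) in the unmarked ones, with 19 of 21 above the unmarked median (limma adjusted p = 6.28e-05).

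**Figure D3:**
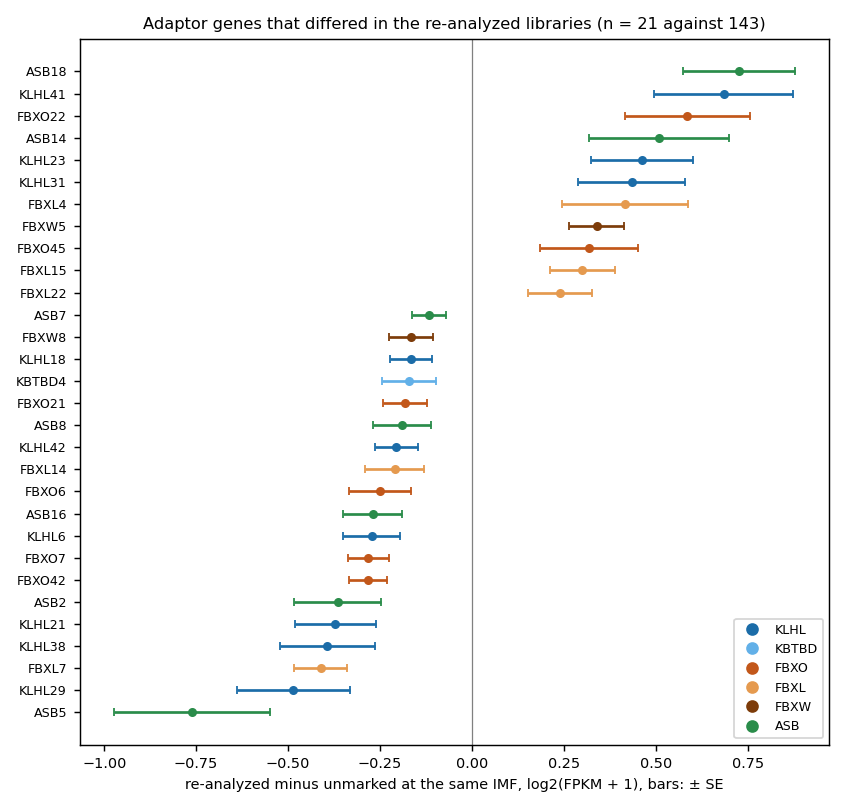
Difference between 21 re-analyzed and 143 unmarked libraries, with IMF as a linear term, for the 30 adaptor genes called by limma (adjusted p under 0.05). Values are on the log2(FPKM + 1) scale with their SE. ASB18, KLHL41 and FBXO22 lie at the upper end (0.73, 0.68 and 0.59) and ASB5 at the lower (-0.76).

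The smallest p-values belonged to F-box genes of low level. FBXL7, a receptor for Aurora A, lay between 0.471 and 2.03 FPKM (median 0.993) in marked and between 0.711 and 9.62 (median 1.61) in unmarked libraries, the highest being library 39. In 19 of 21 marked libraries it was below the unmarked median, and 3 were below every unmarked library. The difference was -0.41 (SE 0.07, limma adjusted p = 2.15e-06). FBXO42, which acts on p53, fell by 0.28 (SE 0.05, limma adjusted p = 8.37e-06, 20 of 21 below the unmarked median). FBXO7, a gene of familial parkinsonism that acts in mitophagy, fell by 0.28 (SE 0.06, limma adjusted p = 2.15e-05, 19 of 21). KLHL6 (-0.27) and KLHL42 (-0.21) fell at a mean below 1 FPKM. FBXW5 rose by 0.34 (SE 0.07, limma adjusted p = 0.000112, 18 of 21 above), FBXO22, a receptor for histone demethylases, by 0.59 (SE 0.17, limma adjusted p = 0.0036, 19 of 21 above), and FBXL15 by 0.30 (SE 0.09, limma adjusted p = 0.00386, 17 of 21 above). FBXO42 overlaps an unnamed gene on its own strand over 31168 bases, so its reads may be shared.

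The shared machinery of the ligases was mostly higher where it differed. Of 40 measured genes for cullins, RING and linker proteins, NEDD8 enzymes and the COP9 signalosome, 19 were higher in marked libraries and 2 lower (52.5% called, against 41.1% of all genes with 18.3% higher and 22.7% lower). With the 9-digit title code as a term, 4 of the 40 were higher and 0 lower in limma. Over all genes that fit called 10.4%, with 3.55% higher and 6.85% lower. In the fit without the code, the 19 higher ones included CUL5 (0.93), the linker ELOC (0.70), CUL2 (0.50), CUL3 (0.37), ELOB (0.36) and RBX1 (0.31). CUL1 did not pass in that fit (-0.35, SE 0.27, limma adjusted p = 0.298). Of 13 tested adaptors with other names, such as KEAP1, 1 was higher and 2 were lower.

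Markers of other cell types moved with the mark. All 6 fibroblast, all 5 macrophage, 4 of 5 adipocyte, 3 of 5 endothelial, 2 of 3 smooth muscle and both satellite cell markers were lower in the marked libraries. With the title code as a term the limma calls were 2 fibroblast, 1 macrophage, 0 adipocyte, 2 endothelial, 0 smooth muscle and 2 satellite cell markers, all lower. Summed fibroblast markers lay between 281 and 1516 FPKM (median 754) in marked and between 274 and 3463 (median 1109) in unmarked libraries. Summed macrophage markers lay between 6.09 and 32.0 FPKM (median 20.7) against 10.5 to 93.0 (median 29.1), and endothelial ones between 27.6 and 65.9 (median 40.5) against 29.5 to 102 (median 57.5). The 6 summed skeletal muscle fibre markers were lower at the median too, at 33859 FPKM in marked against 40075 in unmarked libraries. Their ranges were 16379 to 45440 and 17733 to 61320 FPKM. In the fit without the code, limma called 1 of 5 fast fibre markers higher and 1 lower, and 1 of 6 slow fibre markers lower. The part of all these markers in the adaptor differences was not tested. In bulk muscle, fewer cells of a type and less RNA per cell cannot be told apart, and what the mark stands for cannot be told apart from any handling that went with it.

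The 9-digit title codes are of unstated meaning, and 48 codes occur in at least 2 animals, 146 in all. Codes were compared by a moderated F test in limma. The intraclass correlation (ICC) is the part of the variance found between rather than within codes. Of 88 members 3 passed (3.41%, all genes 1.82%), all of them F-box genes: FBXW5 (ICC 0.35, limma adjusted p = 0.0153), FBXL15 (ICC 0.30, limma adjusted p = 0.0324) and FBXL12 (ICC 0.29, limma adjusted p = 0.0455). ASB6 (ICC 0.25) and FBXO21 (ICC 0.25) followed with adjusted p-values of 0.113 and 0.102. None of the 21 muscle-rich adaptors was called by limma, and 0 had an unadjusted p under 0.05, against 2014 of all 10717 genes. KLHL41 had an ICC of -0.08 and ASB2 one of -0.03.

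For FBXW5, which acts on the actin regulator EPS8, the means of the 27 codes with at least 3 animals ran from 16.8 ± 5.47 FPKM (SD, n = 4) to 30.6 ± 6.2 FPKM (SD, n = 3). The 4 animals of the lowest code lay between 9.95 and 23.3 FPKM and the 3 of the highest between 23.9 and 36.0 FPKM. These 2 codes did not overlap, but they were picked as the extremes. FBXL15, which controls the ligase SMURF1, ran from 3.44 to 8.23 FPKM over codes, and FBXL12 from 1.07 to 2.79 FPKM. FBXL15 overlaps CUEDC2 on the opposite strand over 580 bases, and FBXW5 lies on an unplaced scaffold. These calls were not stable, and calls over all genes fell as well, from 1.82%. Without libraries 39, 79, 82, 122 and 184, 1 member was left (all genes 1.07% called). Without library 39 alone 2 were left (all genes 1.29%), and 0 when each library was centred on its median gene (all genes 1.03%).

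Many adaptor genes varied together across animals. Pearson's r of log2(FPKM + 1), with the means of marked and unmarked libraries removed, reached 0.5 in 483 of 3828 member pairs (12.6%), against 7.67% of all gene pairs. The share was 22.7% among KLHL and KBTBD genes, 10.5% among F-box genes and 2.86% among ASB genes. An r of -0.5 or less was found in 7 member pairs (0.183%, all gene pairs 0.741%). With each library centred on its median gene the shares were 6.9% and 4.95%, and without the 5 libraries that stood apart 12.1% and 7.24%. Pairs share libraries and genes and are no independent observations.

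**Figure D4:**
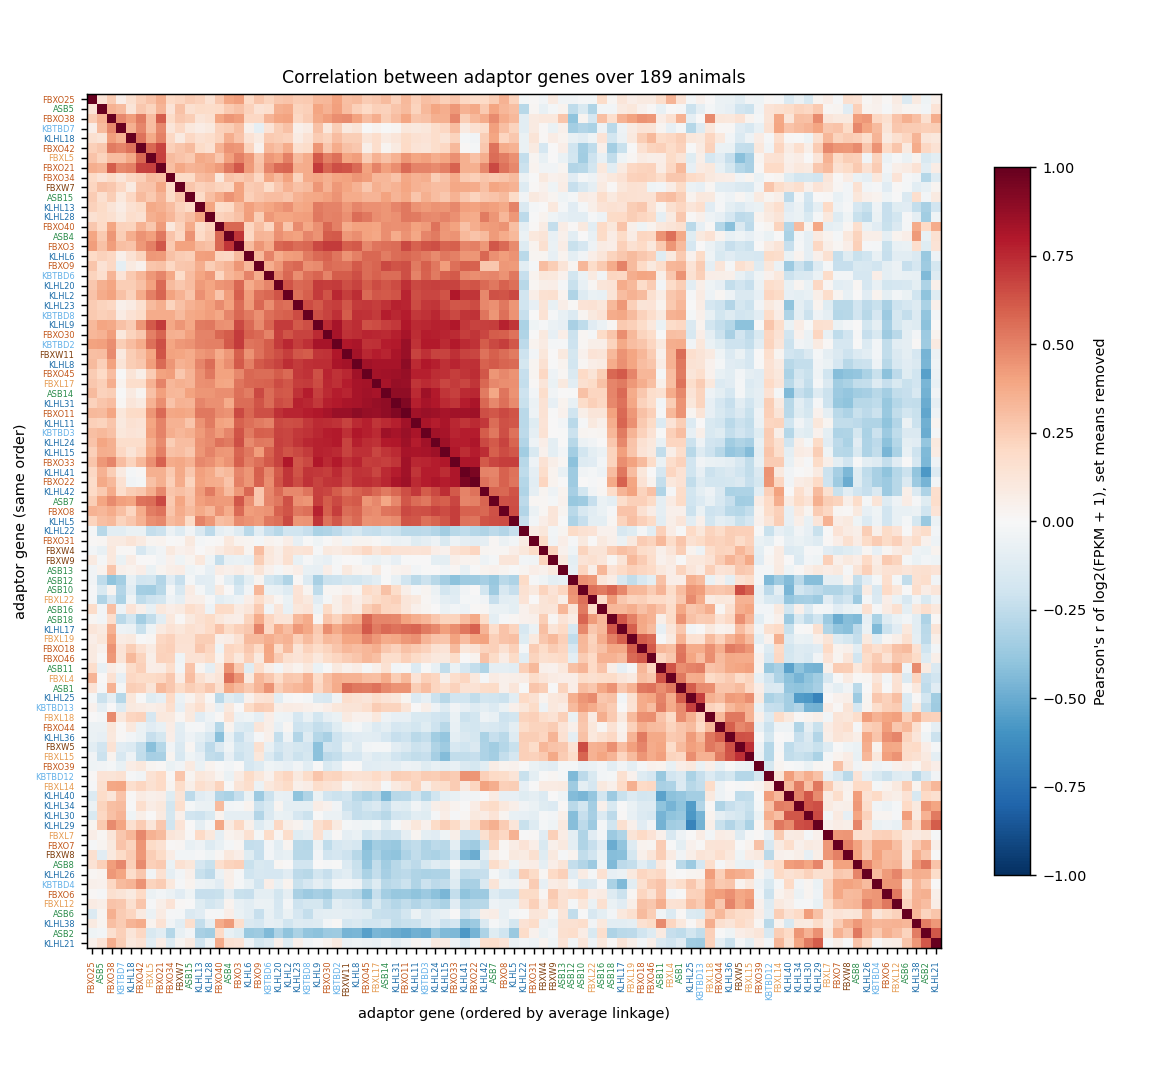
Pearson's r between the tested adaptor genes over 189 animals (87 of 88 drawn), with the means of marked and unmarked libraries removed, in the order of average linkage on both axes; name colours give the family as in the plot of levels. A large block of positively correlated genes around FBXO11 and KLHL31 (r 0.92) contrasts with ASB2, whose r with KLHL41 is -0.58.

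The pairs that varied most closely joined families that bind different cullins. KLHL41 and FBXO22 had an r of 0.939 (rho 0.892, n = 189). It was 0.935 without the 2 animals farthest from the median of KLHL41, 0.946 within the unmarked and 0.457 within the 21 marked libraries, where KLHL41 had an SD of 111 FPKM against 229.5 in the unmarked ones with IMF. KLHL31 and FBXO11, a receptor for BCL6, had an r of 0.924 (0.931 unmarked, 0.748 marked). High values were also found for FBXO11 with KLHL8 (0.896) and ASB14 (0.887) and for KLHL31 with ASB14 (0.887) and FBXL17 (0.871). Each of these pairs had a permutation p of 1e-05, the smallest that 100000 permutations can give, and an adjusted p of 3.34e-05 over 3828 pairs. The centring on the median gene left each of them at 0.798 or above.

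A block of 27 members had an r of at least 0.5 with 20 or more others. It held 15 KLHL and KBTBD genes, 10 F-box genes and 2 ASB genes. KBTBD2 had 34 such partners, FBXO11 33, and FBXO30, KLHL9 and KLHL8 32 each. KLHL41, KLHL31 and ASB14 belonged to it, while KLHL40, ASB2 and FBXO40 did not. The main transcripts of the block had a median length of 4160 bases, against 3039 bases in 43 members with 1 to 19 partners and 3360 in 18 members with none. These lengths overlapped widely (1452 to 8340 bases in the block), and the part of length or RNA integrity in the block was not tested.

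The most opposed pairs were KLHL29 with KLHL25 (r -0.656), KLHL41 with ASB2 (-0.578) and KLHL30 with KLHL25 (-0.575), each with a permutation p of 1e-05. KLHL25 acts on the translation repressor 4E-BP1. For KLHL41 and ASB2, the leading members, rho was -0.610. It was -0.556 without the 2 animals farthest from the median of KLHL41, -0.592 within the unmarked and -0.273 within the marked libraries.

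Pairs of an adaptor with a known partner were also examined, at the level of RNA only. Protein levels, on which these ligases act, were not measured. Of 17 measured pairs, 9 had an adjusted permutation p under 0.05 over these pairs. Passing was common among adaptors in general: 2289 of the 3828 member pairs had an adjusted permutation p under 0.05 over those pairs. KLHL41 followed its cullin CUL3 (r 0.887, rho 0.834, n = 189; 0.876 without the 2 farthest animals, 0.896 unmarked, 0.328 marked). It also followed nebulin, NEB (r 0.636, rho 0.663; 0.641 without the 2 farthest, 0.657 unmarked, 0.181 marked). Both had a permutation p of 1e-05 and an adjusted p of 2.43e-05, as did KLHL40 with LMOD3, ASB2 with CUL5, and FBXO40 and KLHL38 with FBXO32.

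KLHL40, in contrast, ran against the RNA of LMOD3 (r -0.435, rho -0.376, -0.363 without the 2 farthest, -0.455 unmarked, 0.025 marked), whose protein it stabilizes. Its r was -0.106 with NEB (adjusted permutation p = 0.18) and -0.0375 with KLHL41 (adjusted permutation p = 0.608). With CUL3 it was -0.162 (rho -0.160, adjusted permutation p = 0.0486), which no longer passed without library 39 (r -0.152, adjusted permutation p = 0.0636). ASB2 ran against its cullin CUL5 (r -0.523, rho -0.519; -0.520 without the 2 farthest, -0.536 unmarked, -0.250 marked). With its target desmin, DES, it had an r of -0.224 (rho -0.254, adjusted permutation p = 0.00389), which turned to 0.0422 when libraries were centred on their median gene.

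FBXO40 and KLHL38 both followed the atrophy gene FBXO32, with an r of 0.625 (rho 0.642) for FBXO40 and of 0.694 (rho 0.636) for KLHL38. These were nearly as high in the marked libraries as in the unmarked ones, at 0.625 against 0.626 for FBXO40 and 0.682 against 0.699 for KLHL38. Without the 2 farthest animals they were 0.628 and 0.664. FBXO40 had an r of 0.122 with IRS1 and -0.125 with CUL1, both with an adjusted permutation p of 0.121.

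The genes most like each of the 6 most abundant adaptors are given as a description, over the 189 animals with set means removed, and were picked as the highest of all tested genes. Genes like KLHL41 were ETF1 (r 0.953), AIMP1 (0.950), FBXO22 (0.939) and EIF2S2 (0.933), and KLHL31 to SSPN (0.942), RHOQ (0.924), FBXO11 (0.924), UBR3 (0.921) and TTLL7 (0.919). KLHL40 was closest to NRAP (0.818), a myofibril assembly protein, and HSPB2 (0.812), a small heat shock protein of muscle, then to a gene without a symbol (0.802), UCK2 (0.799) and TRAFD1 (0.794). ASB2 was closest to TMEM140 (0.787), SLC43A2 (0.735), SMPD1 (0.696), PRPF19 (0.692) and AAR2 (0.687). Genes like KLHL21 were WDR91 (0.720), SIK3 (0.713), TMEM140 (0.712) and FOXK1 (0.706). FBXO40 was closest to KLF9 (0.697), a glucocorticoid-responsive factor, and then to GPCPD1 (0.688), TCP11L2 (0.686) and RSC1A1 (0.676).

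More than 1 transcript was listed for 32 members, and exactly 2 for 23. KLHL41, ASB1 and FBXO18 drew nearly all their FPKM from the first one in every animal, with a median share of 97.2% for KLHL41 (SD 1.11 percentage points, n = 189). ASB11 split evenly, with a median of 49.9% (SD 8.77), and ASB2 gave its main transcript 83.5% (SD 7.67). In 10 of the 23 genes the second transcript was the higher one in 20 or more animals. Such estimates rest on reads that differ between transcripts, and their error is not given in the file.

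For some adaptors the share of the first transcript differed widely between animals. The first FBXO40 transcript, ENSSSCT00000041480, had a median share of 95.4% and held at least 75% in 136 animals, yet in 32 animals of 26 title codes the second, ENSSSCT00000013002, was higher. In 14 animals the first held less than 25%, down to 12.1%. The second was higher in 11 of the 21 marked libraries and in 21 of the 168 unmarked ones. In the 32 animals the whole gene stood at 41.1 ± 21.7 FPKM, and in the other 157 at 53.1 ± 26.0 FPKM (SD). The gene value includes the first transcript, so it is not independent of how the animals were split.

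KLHL22, an adaptor that acts in cell division, drew at least 75% from its first transcript in 118 animals and 25% to 75% in 71. The second was higher in 45 animals, and in those the gene stood at 1.67 ± 0.64 FPKM (SD, n = 45) against 4.62 ± 1.75 FPKM (SD, n = 144) in the rest. That gene value includes the first transcript, whose share set the split, so it is not independent of the split. KLHL22 is overlapped along its whole length by DGCR2 on the opposite strand. For FBXL12 the second transcript was higher in 58 animals of 42 title codes, of which 2 were marked, and the first held less than 25% in 43. FBXL12 was also one of the 3 members whose level differed between title codes. FBXW7, the receptor for MYC and cyclin E, had the second higher in 12 of 21 marked and 31 of 168 unmarked libraries.

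**Figure D5:**
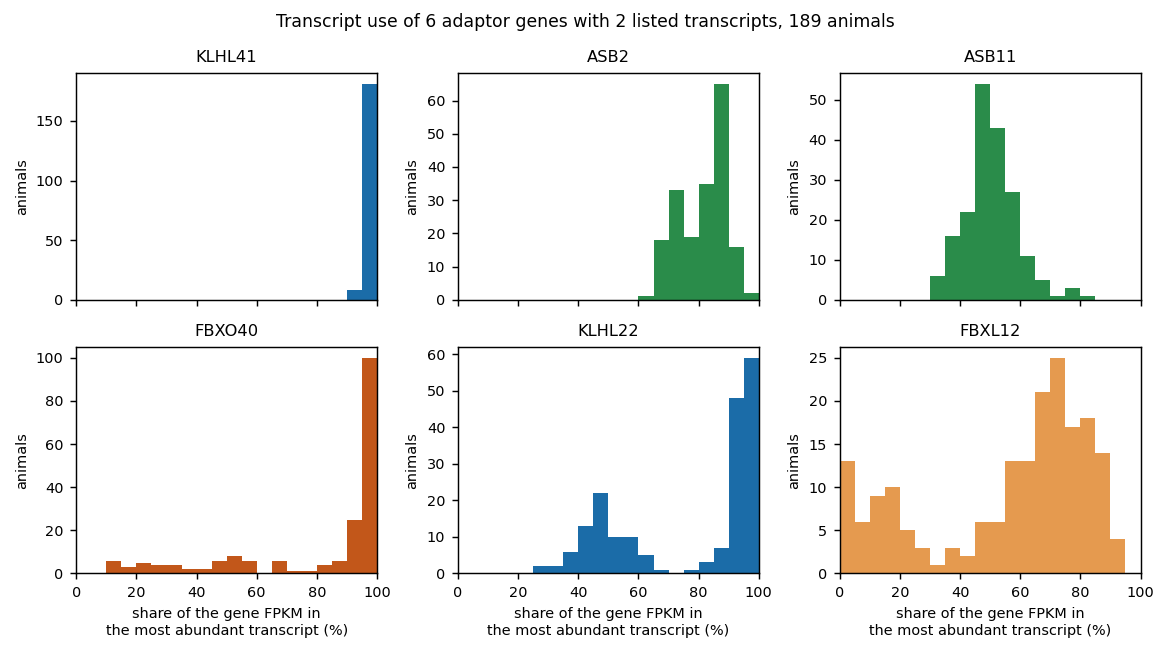
Number of animals (of 189) by the share of a gene's FPKM that its most abundant transcript holds, in steps of 5 percentage points, for 6 adaptor genes with 2 listed transcripts. KLHL41 stays at its median of 97.2%, ASB11 centres on 49.9%, and FBXO40, KLHL22 and FBXL12 spread widely between animals, with the second transcript higher in 32, 45 and 58 animals.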

How the data were processed

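The authors deposited 1 table of values per transcript and library. No unit stands in the header, and the StringTie column layout was the ground for reading them as the authors' FPKM. HISAT2 2.0.5, StringTie 1.3.3 and the build Sscrofa11.1 are named in the submitters' processing notes. The libraries were 150-base paired-end, per the labels' protocols. For the annotation release and the transcript filter, the sources used here give nothing.

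Transcript FPKM were added up by gene. Those averaging 0.5 FPKM or more were fitted with limma 3.58.1 (R 4.3.3; lmFit, eBayes with trend) on log2(FPKM + 1), 2-sided, with Benjamini-Hochberg adjustment over 10717 genes; a call is an adjusted p under 0.05. Fold changes on this scale understate changes of low genes. Correlations used 100000 permutations of animals (Python 3.11.15). Scripts were tested on simulated data. P-values treat animals as independent, although all descend from 8 boars and many must share a father.

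The members and gene lists were chosen with earlier results of these data known. Members named are the 12 most abundant, the 10 most variable, the muscle-rich list, up to 12 called per test (otherwise the 3 smallest p), the 5 largest ICC, the 8 highest and 3 lowest pairs and 5 likest genes of the 6 most abundant; others named illustrate roles, overlaps, transcripts or low levels and were chosen after their values were seen. Alternatives were another pseudocount, filter, scaling or title term, and leaving out libraries. A few genes that these rules pick are not reported here. No sequences are shown.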

Additional observations from a re-analysis of the deposited data

Results flagged for a closer look

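Within the 10 re-analyzed high IMF libraries, 15 members were checked for a library far from the others. If values are normally distributed, chance alone flags about 1 in 20 such groups. KLHL40 was 263 FPKM in library 160, next to 107 in the library below it and 56.3 in the lowest. FBXO40 was 122.5 FPKM in library 141, next to 67.5 in the library below it. In both genes the gap to the next library exceeded Dixon's limit as a fraction of the group's range, at 0.754 for KLHL40 and 0.583 for FBXO40. The gaps were taken on FPKM and not on the log2(FPKM + 1) scale of the other tests. KLHL40 had a long upper tail on the FPKM scale, so the chance rate may not hold. Neither gene passed the threshold in the comparisons of IMF, mark or title codes.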

How the results depend on the processing

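The count of 0 members for IMF, for high against low IMF (also without each of 21 libraries in turn) and for the difference of slopes held in every alternative run for each. For the mark, 11 members were higher in marked libraries and 19 lower (all genes 18.3% and 22.7%). Members higher numbered 18 after quantile normalization (all genes 21.5%) and 17 with median centring (23.8%). With the first 4 title digits as a factor they numbered 7 (all genes 17.3%). At a mean of at least 5 FPKM only the 40 most abundant members were tested. There 6 were higher and 8 lower (all genes 26.1% and 20.8%). Leaving out each marked library gave 8 to 13 higher and 15 to 21 lower (37.9% to 41.3% of all genes called). Quantile normalization and median centring kept 27 of the 30 members called, and the title term 25. For title codes, 3 members were called (all genes 1.82%). They became 1 at a mean of at least 5 FPKM (all genes 3.93%), 1 after quantile normalization (1.02%) and 0 with median centring (1.03%). Over codes with 3 or more animals 0 were called (all genes 0.327%), and in unmarked libraries alone 1 was (0.551%). Without libraries 39, 79, 82, 122 and 184, a setting chosen after seeing the data, 1 was called (all genes 1.07%). With median centring 264 of 3828 member pairs reached an r of at least 0.5, against 483, and without those 5 libraries 462 did. Median centring turned ASB2 with DES to 0.0422 and FBXL22 with ACTN2 from -0.146 to 0.0447, and brought KLHL40 with NEB and KLHL31 with FLNC past the threshold (-0.192 and -0.267). The cause of these changes was not tested, apart from the filter, which leaves fewer genes. With the 9-digit title code as a factor, chosen after seeing the data, 0 members were called for IMF (1 at an unadjusted p under 0.05, and 0 of all genes by limma), FBXO9 turned to -0.0071 per IMF unit, and for the mark 1 member was higher and 3 were lower; this fit compares within the 12 codes that hold both sets. No paired analysis was possible because replicate numbers are not shared; each library has its own. Depth is unknown, so the counting error of members near 0.5 FPKM could not be given.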
